A study of Mus musculus with 16 samples.

Results

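The mitochondrial genome of the mouse carries 37 genes, and all 37 were found among the 54532 genes of the count table by a single rule, that the table places them on chromosome MT. They are 13 protein-coding genes, 2 ribosomal RNA genes and 22 transfer RNA genes. RNA came from tumours grown in the colon of C57BL/6 mice. On day 1 either MSI or CIN cells of MC38, a mouse colon carcinoma line, were injected into the colon wall, in its descending stretch. The mice also received bone marrow derived dendritic cells by intraperitoneal injection on days 1, 6 and 12. Those cells had first been exposed for 30 minutes, with Lipofectamine 2000, to 2 µg of DNA, given either as free cyDNA (cytosolic DNA, called free DNA here) or as micronuclei, from either MSI or CIN cells. The labels do not spell out MSI and CIN, which in tumour biology are the usual abbreviations for microsatellite instability and chromosomal instability. A micronucleus is a small body of chromatin outside the main nucleus. Tumours were taken on day 15, and the RNA sequenced was a mix, in equal parts, of 3 biological replicates. The layout is a full cross of 2 tumour types, 2 DNA sources and 2 DNA forms, which makes 8 groups. Each group has 2 libraries, numbered 1 and 2 in the labels. Every group received dendritic cells loaded with DNA, and tumours without such cells were not analysed here.

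Mitochondrial DNA is transcribed from both strands as long precursors that run across almost the whole circle. Transfer RNAs lie between most of the other genes, and cutting them out releases the separate mRNAs and rRNAs. The mRNAs receive short poly(A) tails, the 2 rRNAs build the mitochondrial ribosome, and the proteins are core subunits of complexes I, III, IV and V of oxidative phosphorylation, all of which also need subunits encoded in the nucleus. Tissues that respire heavily, such as muscle and the absorptive epithelium of the gut, hold much mitochondrial RNA.

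Stretches of mitochondrial sequence have been copied into chromosome 1, and these copies decide which mitochondrial genes can be measured well from short reads. The 6 copies aligned here lie side by side on the minus strand of chromosome 1, from position 24611535 to 24616197 in GRCm38 coordinates. Further annotated genes share windows of 50 bases with mt-Co1, mt-Co2, mt-Atp6, mt-Nd2, mt-Nd5 and mt-Rnr2, and were not aligned. Gm28661, at 24614885 to 24615565, matches 681 of 681 aligned bases of mt-Co2 (cytochrome c oxidase subunit II). Gm28437 matches 783 of 783 bases of mt-Co3, Gm10925 matches 678 of 678 bases of mt-Atp6, and Gm28439 matches 876 of 876 bases of the start of mt-Nd4. Gm28438 differs from mt-Nd3 at 1 of 345 bases. Gm29216 differs from the last 483 bases of mt-Co1 (cytochrome c oxidase subunit I) at 1 base, which lies inside the following window, MT:6390-6449 on the plus strand. The capital marks the only base at which the copy differs, and it is followed by the same window of the copy and by the first bases of mt-Co2 (MT:7013-7072, plus strand) and of its copy.
mt-Co1: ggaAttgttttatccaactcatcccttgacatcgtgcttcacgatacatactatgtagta
Gm29216: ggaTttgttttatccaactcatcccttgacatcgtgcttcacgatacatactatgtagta
mt-Co2: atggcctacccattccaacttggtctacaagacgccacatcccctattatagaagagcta
Gm28661: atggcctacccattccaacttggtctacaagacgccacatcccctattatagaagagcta

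A read that falls wholly inside the mt-Co2 lines above fits both places equally well. Of all 100-base windows of mt-Co2, 99.5% were also present in another annotated gene. The share was 99.5% for mt-Atp6, 99.9% for mt-Co3, 97.6% for mt-Nd3 and 98.5% for mt-Nd4l, whose other copy is Gm10222. It was 60.8% for mt-Nd4, 30.8% for mt-Co1 and 3.20% for mt-Nd2. No 100-base window of mt-Nd1, mt-Nd5, mt-Nd6, mt-Cytb, mt-Rnr1, mt-Rnr2 or mt-Atp8 occurred in another annotated gene. The sources used here do not say how reads with several equal matches were counted, so the counts of mt-Co2, mt-Co3, mt-Atp6, mt-Nd3 and mt-Nd4l are uncertain as levels. A second source of shared bases is overlap within the mitochondrial genome. The 3′ end of mt-Atp8 (MT:7910-7969, plus strand) shares its last 43 bases, in capitals, with the start of mt-Atp6.
mt-Atp8: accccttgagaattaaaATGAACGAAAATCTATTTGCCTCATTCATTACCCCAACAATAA

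The mRNAs differed widely in level. Per kilobase of gene, in CPM (counts scaled to a common library size by TMM, the trimmed mean of M values), mt-Co1 had the highest median over the 16 libraries, 5798 CPM per kilobase, with a range of 4036 to 11996. mt-Nd1, a complex I subunit, followed at 2125 and mt-Cytb, the cytochrome b of complex III, at 2072, and their ranges overlapped almost completely. The complex I subunits mt-Nd4 at 970, mt-Nd2 at 916, mt-Nd6 at 890 and mt-Nd5 at 690 CPM per kilobase formed the next step, again with overlapping ranges. The 2 rRNAs stood lower, mt-Rnr1 at 440 and mt-Rnr2 at 294, in libraries that were selected for poly(A). Then came the mRNAs with almost all of their windows in another annotated gene. They were mt-Co2 at 133, mt-Atp6 at 89.0, mt-Co3 at 79.1, mt-Nd3 at 17.3 and mt-Nd4l at 6.30 CPM per kilobase. mt-Co1 and mt-Nd4, which share 30.8% and 60.8% of their windows, stood well above them. mt-Atp8, which has no such window but overlaps mt-Atp6, was lowest at 1.06, and 2 libraries had no count for it.

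**Figure D1:**
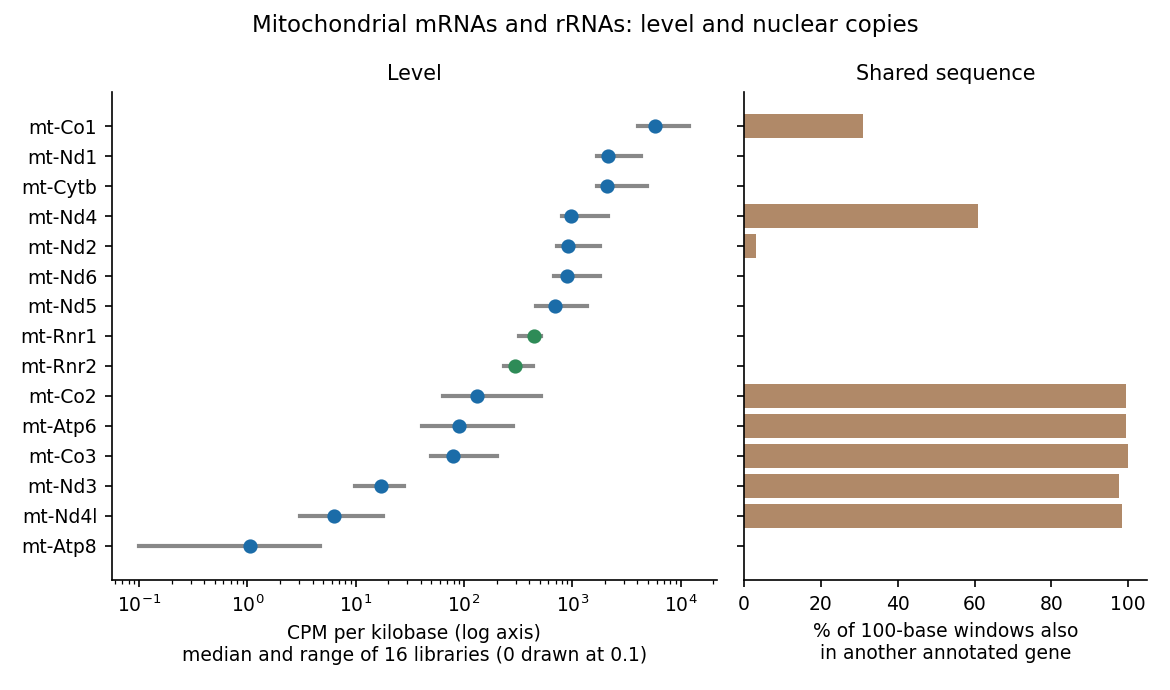
Level of the 15 mitochondrial mRNAs and rRNAs in CPM per kilobase on a log axis (left: points are medians and lines the range of 16 libraries, rRNAs in green) beside the percentage of their 100-base windows that also occur in another annotated gene (right). The 5 mRNAs with over 97% shared windows all have medians of 133 or less, and mt-Atp8 is lowest without sharing any.

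The copies on chromosome 1 were counted too. Gm28661 had a median of 29.2 CPM against 90.9 for mt-Co2, so 26.1% of the counts of the pair (10.4% to 59.3% over the libraries) went to the nuclear copy. For mt-Atp6 and Gm10925 the median share in the copy was 41.8%, for mt-Co3 and Gm28437 it was 34.1%, and for mt-Nd3 and Gm28438 it was 56.4%. For the 2 partly unique genes it was small, 0.340% for mt-Co1 with Gm29216 and 0.603% for mt-Nd4 with Gm28439.

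Among the 22 transfer RNA genes, 12 reached 10 counts summed over the 16 libraries, 5 had fewer, and 5 (mt-Tf, mt-Td, mt-Tk, mt-Tg and mt-Tt) had none. Of the 10607 transfer RNA counts, 91.4% came from the 8 genes on the light strand, and 87.9% from just 3 of those. These were the genes for the proline, cysteine and asparagine tRNAs, mt-Tp (MT:15356-15422), mt-Tc (MT:5192-5257) and mt-Tn (MT:5089-5159), all on the minus strand of the files. Their whole genes are shown because they carry almost all of the signal in this class.
mt-Tp: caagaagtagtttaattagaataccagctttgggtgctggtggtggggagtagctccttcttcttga
mt-Tc: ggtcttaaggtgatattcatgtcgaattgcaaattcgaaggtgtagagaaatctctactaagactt
mt-Tn: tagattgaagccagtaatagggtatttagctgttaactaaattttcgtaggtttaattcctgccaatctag

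mt-Tp had a median of 21.3 CPM (14.9 to 48.0), mt-Tc of 10.1 CPM (8.41 to 16.5) and mt-Tn of 4.41 CPM (2.61 to 7.57). The other 9 transfer RNA genes with at least 10 counts had medians between 0 and 1.21 CPM, led by mt-Tl2, mt-Tl1 (both for leucine), mt-Ty (tyrosine), mt-Th (histidine), mt-Ts2 (serine) and mt-Te (glutamate). The remaining 3, mt-Tw (tryptophan), mt-Ts1 (serine) and mt-Ti (isoleucine), had 26, 20 and 14 counts in all. Short RNAs of this size are poorly kept by poly(A) selection and size selection, so these values describe what the libraries held and not the amount of mature tRNA.

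Depth was similar across libraries, with 11561955 to 17937501 counts in genes, of which 185520 to 598793 were mitochondrial. Before the comparisons, 2 features of the libraries bear on them. In MSI tumours the libraries numbered 2 differed from those numbered 1 across the transcriptome: 31.5% of the 18777 genes tested passed the threshold there with edgeR (13.4% higher and 18% lower in number 2), while 0% passed in CIN tumours. DESeq2 called 4741 genes higher and 3780 lower in MSI tumours, and 430 genes (2.29%) in CIN tumours. The share in MSI tumours was 6.95% to 9.0% when either library given CIN micronuclei, MSI free DNA or CIN free DNA was left out, and 23.7% to 35.9% without any 1 of the other libraries. The sources used here do not say what the numbers stand for. In addition, 5 libraries were rich in skeletal muscle transcripts, 1 of MSI and 4 of CIN tumours; their mitochondrial share was 1.57% to 1.85%, against 1.43% to 3.68% in the other 11. The 15 colon epithelium markers of the labelled tissue summed to 172 to 14318 CPM, a wide range between libraries. Nothing in the labels says whether the libraries of a group were separate pools of mice, so p-values measure the spread between libraries, which may be technical. In bulk tumour RNA, a change in the number of cells of a type and a change in RNA per cell cannot be told apart.

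Mitochondrial genes took 1.43% to 3.68% of all counts, with a mean of 2.07% ± 0.653 (SD, n = 16). Counting error was small beside this spread, since the 95% Wilson interval of a single library was at most ± 0.00916 percentage points; such intervals cover counting error only. The values split by tumour type and library number more than by treatment. In MSI tumours the 4 libraries numbered 1 held 1.60% (MSI micronuclei), 1.57% (CIN micronuclei), 1.71% (MSI free DNA) and 1.43% (CIN free DNA). The 4 numbered 2 held 2.29%, 3.68%, 3.19% and 2.88% in the same order. The 2 sets did not overlap, and number 2 was higher in 4 of 4 groups, by 1.43-fold to 2.35-fold. In CIN tumours, number 1 held 1.60%, 1.91%, 2.04% and 1.68% in that order and number 2 held 1.85%, 2.36%, 1.62% and 1.76%. These sets overlapped, and number 2 was higher in 3 of 4 groups.

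**Figure D2:**
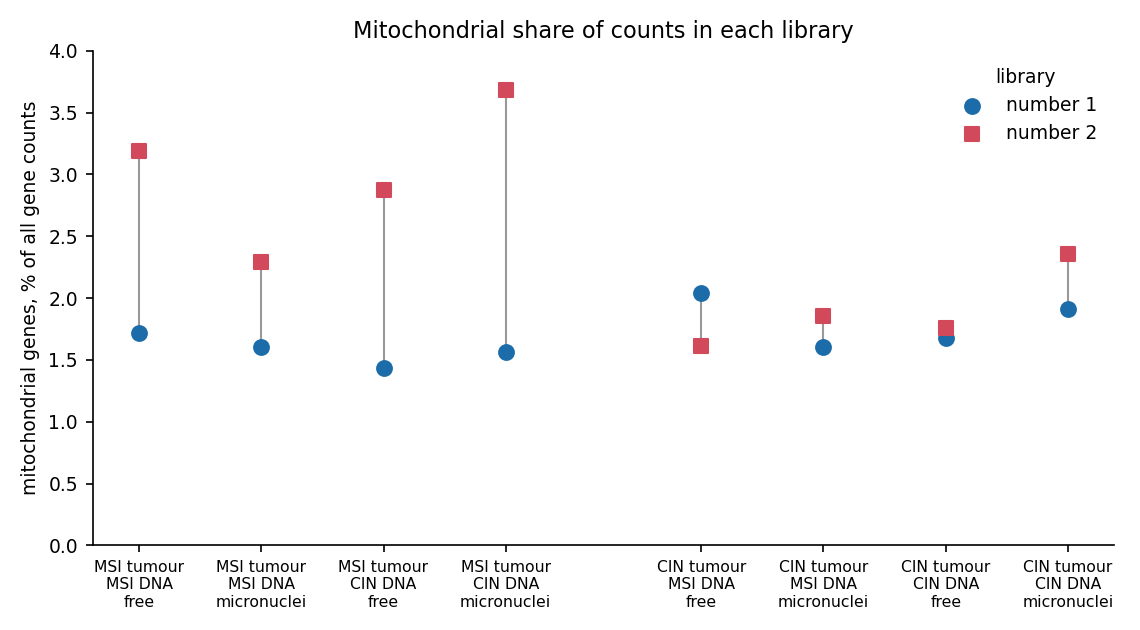
Mitochondrial genes as a percentage of all gene counts in each of the 16 libraries, by group (number 1 as blue circles, number 2 as red squares, joined within a group). The 4 MSI tumour libraries numbered 2 sit between 2.29% and 3.68%, above all 4 numbered 1, while the CIN tumour libraries overlap.

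By the factors of the design the means lay close together. MSI tumours averaged 2.30% ± 0.858 and CIN tumours 1.85% ± 0.253 (SD, n = 8 each), and the tumour types overlapped. Libraries given MSI DNA averaged 1.99% ± 0.544 and those given CIN DNA 2.16% ± 0.775. Free DNA averaged 2.04% ± 0.643 and micronuclei 2.11% ± 0.705. Each of these 3 differences was smaller than the SD of at least 1 of its groups. The order of the tumour types depended on the library number. In number 1 the mean was 1.58% in MSI and 1.81% in CIN tumours, and in number 2 it was 3.01% and 1.90%. The share is a sum over the genes described here, and no test was made on it.

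Much of the variation was common to the mRNAs, and less of it to the rRNAs. For the 14 mRNAs and rRNAs with a count in every library, the median SD of log2 CPM across the 16 libraries was 0.44. The median SD of the log2 percentage within the mitochondrial counts was 0.21. mt-Rnr1 went the other way, from 0.21 to 0.38, and mt-Rnr2 changed little, from 0.28 to 0.23. Dividing by that total also lowers the SD of a gene that makes up much of it, such as mt-Co1. mt-Co1 made up 43.2% to 52.1% of mitochondrial counts, mt-Cytb 11.9% to 14.8%, mt-Nd1 9.53% to 12.8%, mt-Nd4 6.81% to 7.93%, mt-Nd5 5.37% to 8.65%, mt-Nd2 4.57% to 5.98% and mt-Nd6, the only mRNA gene on the minus strand, 2.06% to 3.05%. The complex I genes together held 33.1% ± 1.69 and mt-Cytb alone 13.5% ± 0.702 (SD, n = 16).

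Within that shared movement, the balance differed between the 2 library numbers of MSI tumours. mt-Rnr1 (the 12S rRNA) made up 2.63% to 3.16% of mitochondrial counts in number 1 and 1.26% to 1.88% in number 2. mt-Rnr2 (the 16S rRNA) held 2.72% to 3.31% in number 1 and 1.80% to 2.50% in number 2, and mt-Nd1 held 12.5% to 12.8% and 10.7% to 11.6%. The order was the opposite for mt-Co1, with 43.2% to 45.5% in number 1 and 46.0% to 48.5% in number 2, and for mt-Cytb, with 12.6% to 13.3% and 13.5% to 14.8%. None of these 5 pairs of ranges overlapped, while the ranges of every other mRNA did. mt-Nd2, for example, held 5.10% to 5.98% in number 1 and 4.86% to 5.28% in number 2. These shares are parts of 1 total, so a higher share of a gene lowers those of others. In CIN tumours mt-Nd1 was likewise lower in number 2, with 10.3% to 11.7% in number 1 and 9.53% to 10.2% in number 2 and no overlap. mt-Co1 held 46.8% to 49.9% and 48.9% to 52.1% there, with overlapping ranges. The ranges of mt-Cytb, mt-Rnr1 and mt-Rnr2 also overlapped in CIN tumours; mt-Rnr1 held 1.88% to 2.22% in number 1 and 1.63% to 2.16% in number 2. Whether these differences in balance are unequal between the tumour types was not tested. These shares carry no test.

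**Figure D3:**
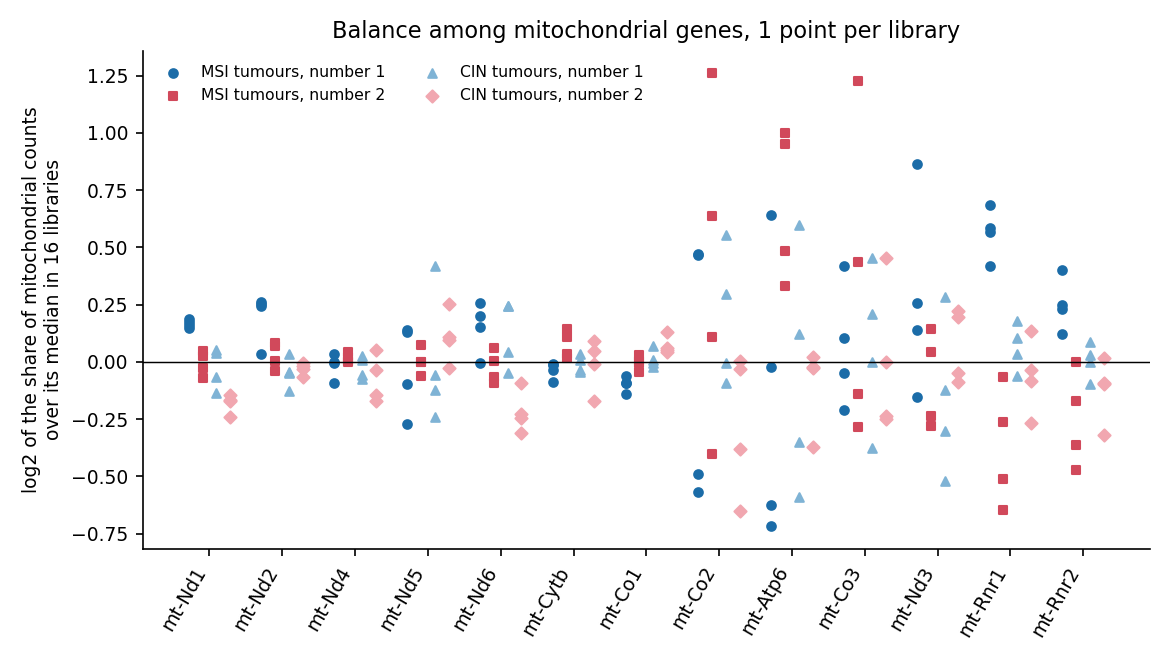
Share of each gene within the mitochondrial counts of a library, as log2 over that gene's median in 16 libraries, 1 point per library in 4 sets by tumour type and library number. In MSI tumours mt-Nd1, mt-Rnr1 and mt-Rnr2 lie lower and mt-Co1 and mt-Cytb higher in number 2 than in number 1. Among the genes drawn, mt-Atp6, mt-Co2 and mt-Co3 scatter most over the libraries, and mt-Nd4 and mt-Co1 least.

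Gene by gene, 24 of the 37 mitochondrial genes had enough counts to be tested (13 mRNAs, 2 rRNAs and 9 tRNAs). A gene is called here when its p-value from edgeR's quasi-likelihood test, adjusted by Benjamini-Hochberg over all 18777 genes, is under 0.05. In MSI tumours 13 of the 24 rose in libraries numbered 2 against number 1 and none fell, where 13.4% of all genes tested rose. The 13 were 11 of the 13 mRNAs, mt-Rnr2 and mt-Tp. The median log2 fold change over the 24 was 0.86, against -0.09 over all genes tested. A fit without 1 library leaves the other library of its group alone, which then adds nothing to the number effect. Leaving out a CIN tumour library reaches the MSI tumour estimate only through the scaling, the filter and the shared spread. The 16 fits below are therefore not 16 separate checks. Leaving out 1 library at a time left between 7 and 13 of the genes called, and mt-Co1, mt-Co2, mt-Cytb, mt-Nd1, mt-Nd2, mt-Nd4 and mt-Nd5 were called in all 16 such fits. The count was 7 or 8 without either library of MSI tumours given CIN micronuclei, MSI free DNA or CIN free DNA, fits in which 2.38% to 3.51% of all genes were higher.

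The complex IV subunit mt-Co1 had 7131, 7020, 7303 and 6235 CPM in the MSI tumour libraries numbered 1 and 10669, 18534, 14977 and 13927 CPM in those numbered 2 (order as for the shares). All 4 numbered 2 were above all 4 numbered 1. The edgeR log2 fold change was 1.04 ± 0.14 (SE, adjusted p = 0.00528). mt-Co2, another complex IV subunit and the gene identical to Gm28661, had 50.3, 98.0, 102 and 43.8 CPM in number 1 and 76.4, 186, 351 and 205 CPM in number 2, with overlap at the low end. Its log2 fold change was 1.38 ± 0.25 (edgeR adjusted p = 0.00894). mt-Co3 had a log2 fold change of 1.20 ± 0.28 (edgeR adjusted p = 0.0192).

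Of the complex I subunits, mt-Nd5 had 841, 1126, 995 and 1025 CPM in number 1 and 1454, 2474, 2217 and 1824 CPM in number 2, without overlap. Its log2 fold change was 0.98 ± 0.11 (edgeR adjusted p = 0.00528). mt-Nd4 rose by 0.99 ± 0.16, mt-Nd1 by 0.78 ± 0.14, mt-Nd2 by 0.78 ± 0.11 and mt-Nd6 by 0.78 ± 0.17 on the same scale. The edgeR adjusted p-values of these 4 lay between 0.00583 (mt-Nd2) and 0.0129 (mt-Nd6). mt-Nd4l rose by 1.05 ± 0.35 with an adjusted p of 0.0452 on 0.905 to 5.30 CPM, and was called in 2 of the 16 fits without 1 library. mt-Nd3 was at 0.60 ± 0.28 and was not called (edgeR adjusted p = 0.124).

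mt-Cytb, the single complex III gene, had 2049, 1984, 2173 and 1924 CPM in number 1 and 3034, 5644, 4694 and 4023 CPM in number 2. Its log2 fold change was 1.06 ± 0.15 (edgeR adjusted p = 0.00583). Of the complex V subunits, mt-Atp6 had the largest log2 fold change among the called genes, 1.83 ± 0.33 (edgeR adjusted p = 0.0100), with 72.8, 28.6, 48.2 and 28.0 CPM in number 1 and 129, 160, 194 and 110 CPM in number 2. mt-Atp8 was at 2.04 ± 1.00 on levels of 0.957 CPM or less and was not called (edgeR adjusted p = 0.133).

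Both rRNAs had smaller log2 fold changes than every mRNA, a difference that was not tested. mt-Rnr1, the gene of the small ribosomal RNA, had 495, 464, 431 and 421 CPM in number 1 and 420, 480, 449 and 480 CPM in number 2, so the sets overlapped throughout. Its log2 fold change was 0.02 ± 0.12 (edgeR adjusted p = 0.935) and became -0.02 with scaling to the total count and -0.01 with scaling that leaves out the mitochondrial genes. mt-Rnr2, the gene of the large ribosomal RNA, had 518, 468, 446 and 424 CPM in number 1 and 560, 689, 632 and 652 CPM in number 2. It rose by 0.45 ± 0.14 (edgeR adjusted p = 0.0359), the smallest change among the called genes. Both are shown around their longest run of A, in capitals, since the libraries were made by binding to poly-T: MT:678-737 and MT:1462-1521, plus strand. The runs are 5 and 7 bases long, and those of the 13 mRNAs are 3 to 8.
mt-Rnr1: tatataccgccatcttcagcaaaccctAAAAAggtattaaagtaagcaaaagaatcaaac
mt-Rnr2: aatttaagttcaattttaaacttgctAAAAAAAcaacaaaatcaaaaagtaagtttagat

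The light-strand tRNA genes gave values in both directions. mt-Tp, for the proline tRNA, had 21.7, 17.7, 20.9 and 14.9 CPM in number 1 and 26.4, 48.0, 38.5 and 33.7 CPM in number 2. It rose by 0.95 ± 0.22 (edgeR adjusted p = 0.0158). mt-Tc was at -0.16 ± 0.20 and mt-Tn at -0.58 ± 0.24, and neither was called (edgeR adjusted p = 0.531 and 0.0865).

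In CIN tumours the same comparison gave no called mitochondrial gene, where 0% of all genes passed. The mt-Co1 levels were 7774, 8783, 9695 and 8214 CPM in number 1 and 9133, 11379, 8046 and 9505 CPM in number 2, with a log2 fold change of 0.14 ± 0.14 (edgeR adjusted p = 0.831). The 13 mRNAs lay between -0.65 (mt-Atp8) and 0.35 (mt-Nd4l). Of the 24 genes 1, mt-Tn, had an unadjusted p under 0.05, beside 1684 of all 18777 genes tested. Its log2 fold change was -0.80 ± 0.25 (edgeR adjusted p = 0.426).

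Whether the 2 tumour types differ in this respect was tested directly. The difference of the log2 fold changes, MSI minus CIN tumours, was 0.91 ± 0.19 for mt-Co1, 0.99 ± 0.22 for mt-Cytb, 0.79 ± 0.15 for mt-Nd5 and 1.76 ± 0.34 for mt-Co2, each with an edgeR adjusted p of 0.0751. No mitochondrial gene and 0% of all genes passed with edgeR. At an unadjusted p under 0.05 there were 13 of the 24 mitochondrial genes, beside 5699 of the 18777 genes tested. DESeq2 called 12 mitochondrial genes higher, where it called 23.7% of all genes. For mt-Rnr1 the difference was 0.06 ± 0.18 (edgeR adjusted p = 0.820). Leaving out either library of MSI tumours given MSI micronuclei brought the edgeR count to 10, and leaving out library 2 of CIN tumours given MSI micronuclei brought it to 8. In those fits 20.3% and 9.79% of all genes were called. Over all 8 groups together, number 2 against number 1 gave no called mitochondrial gene and 0% of all genes with edgeR. There, 9 mitochondrial genes had an unadjusted p under 0.05, beside 4670 of the 18777 genes tested. DESeq2 called 6 mitochondrial genes (5 higher and 1 lower) and 15.4% of all genes. Without either library of CIN tumours given MSI free DNA, edgeR called 2 mitochondrial genes and 4.4% or 4.45% of all genes.

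**Figure D4:**
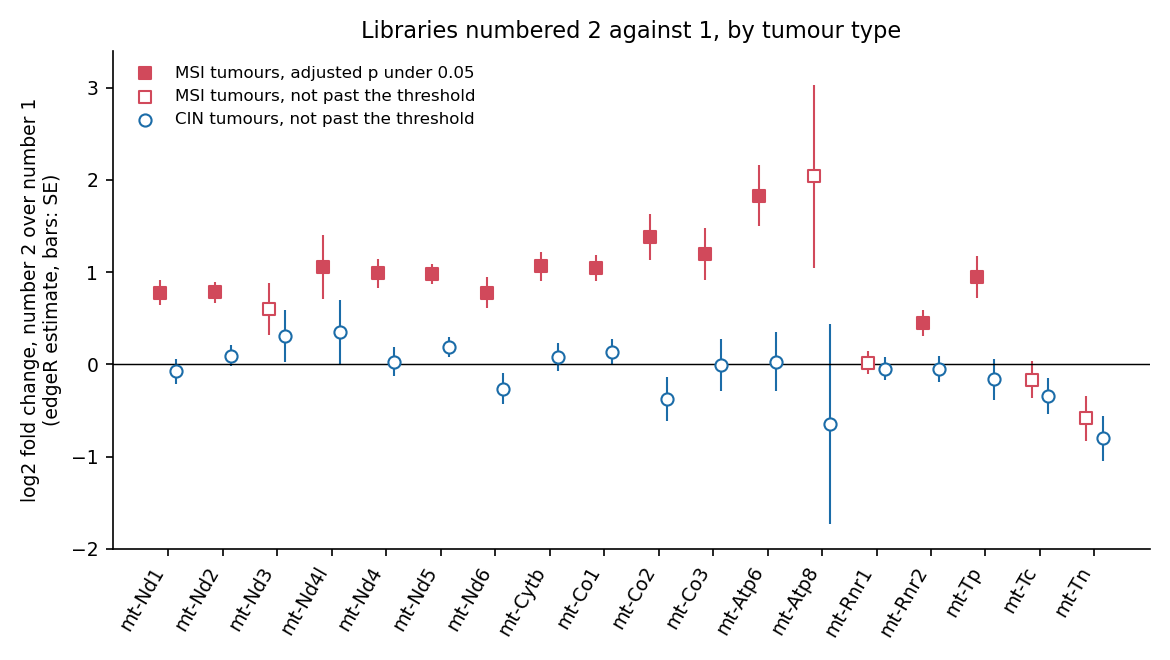
edgeR log2 fold change (bars: SE) of libraries numbered 2 over those numbered 1 for the 15 mRNAs and rRNAs and 3 tRNA genes, in MSI tumours (red squares) and CIN tumours (blue circles), with filled symbols for an adjusted p under 0.05. The MSI tumour values of 11 mRNAs lie at 0.78 or above and are filled, mt-Rnr1 lies at 0.02, and no CIN tumour value is filled.

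Nuclear genes for the same complexes also rose. Of 75 tested nuclear subunits of complexes I to V, 47 rose in number 2 of MSI tumours and 0 fell, where 13.4% of all genes rose and 18% fell. Their median log2 fold change was 0.52, against -0.09 over all genes. The counts were 17 of 36 for complex I, 3 of 4 for complex II, 7 of 9 for complex III, 10 of 11 for complex IV and 10 of 15 for complex V. Examples were Ndufa6 of complex I (0.86 ± 0.17), Sdha, the flavoprotein of complex II (0.68 ± 0.12), Uqcrfs1, the Rieske protein of complex III (0.90 ± 0.16), Cox5a of complex IV (0.88 ± 0.20) and Atp5g3 of complex V (0.78 ± 0.17), with edgeR adjusted p-values between 0.00763 (Uqcrfs1) and 0.0157 (Cox5a). The count was 6 to 10 without either library of MSI tumours given CIN micronuclei, MSI free DNA or CIN free DNA, where 2.38% to 3.51% of all genes were higher. The log2 fold changes of these 75 nuclear genes ran from -0.06 to 0.90, and those of the 13 mitochondrial mRNAs from 0.60 to 2.04.

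The genes that maintain and read mitochondrial DNA gave calls in both directions, to be read against the 13.4% of all genes that rose and the 18% that fell. In the list for mitochondrial transcription and RNA processing, 2 of 23 rose (Tfb2m and Fastkd2) and 2 fell, with a median of -0.10 that is close to the -0.09 of all genes. The 2 that fell were Lrpprc, which stabilises mitochondrial mRNAs (-0.47 ± 0.15, edgeR adjusted p = 0.0372), and Dhx30, a helicase of the RNA granule (-0.38 ± 0.10, edgeR adjusted p = 0.0206). Tfam, the packaging and transcription factor of mitochondrial DNA, had 67.1 ± 5.46 CPM in number 1 and 57.2 ± 1.31 CPM in number 2 (SD, n = 4 each) and was not called (edgeR adjusted p = 0.0851). Polrmt, the mitochondrial RNA polymerase, was at -0.24 ± 0.11 (edgeR adjusted p = 0.123), and Slirp, the partner of Lrpprc, at -0.38 ± 0.47 on about 1 CPM (edgeR adjusted p = 0.551). For mitochondrial DNA maintenance, 3 of 9 fell (Mgme1, Twnk and Ssbp1) and 0 rose. Of 77 mitochondrial ribosomal proteins, 1 rose (Mrpl43) and 7 fell, led by Mrpl33 (-0.57 ± 0.09, edgeR adjusted p = 0.00615).

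In the list for biogenesis and mass, 5 of 8 rose and 1 fell, beside the same 13.4% and 18% of all genes. Cs, the citrate synthase of the matrix, went from 305 ± 26.2 to 581 ± 94.1 CPM (SD, n = 4 each), a log2 fold change of 0.92 ± 0.15 (edgeR adjusted p = 0.00694). Esrra, a nuclear receptor that drives respiratory genes, rose 2.82-fold (edgeR adjusted p = 0.0292), and its coactivator Ppargc1b by 1.23 ± 0.24 on the log2 scale (edgeR adjusted p = 0.00981), while Nrf1 was at -0.30 ± 0.10 and fell (edgeR adjusted p = 0.0397). Ppargc1a, the coactivator of mitochondrial biogenesis, had 7.53 ± 4.83 CPM in number 1 and 32.3 ± 11.1 CPM in number 2 (SD, n = 4 each); the sets did not overlap, but it was not called (edgeR adjusted p = 0.106).

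**Figure D5:**
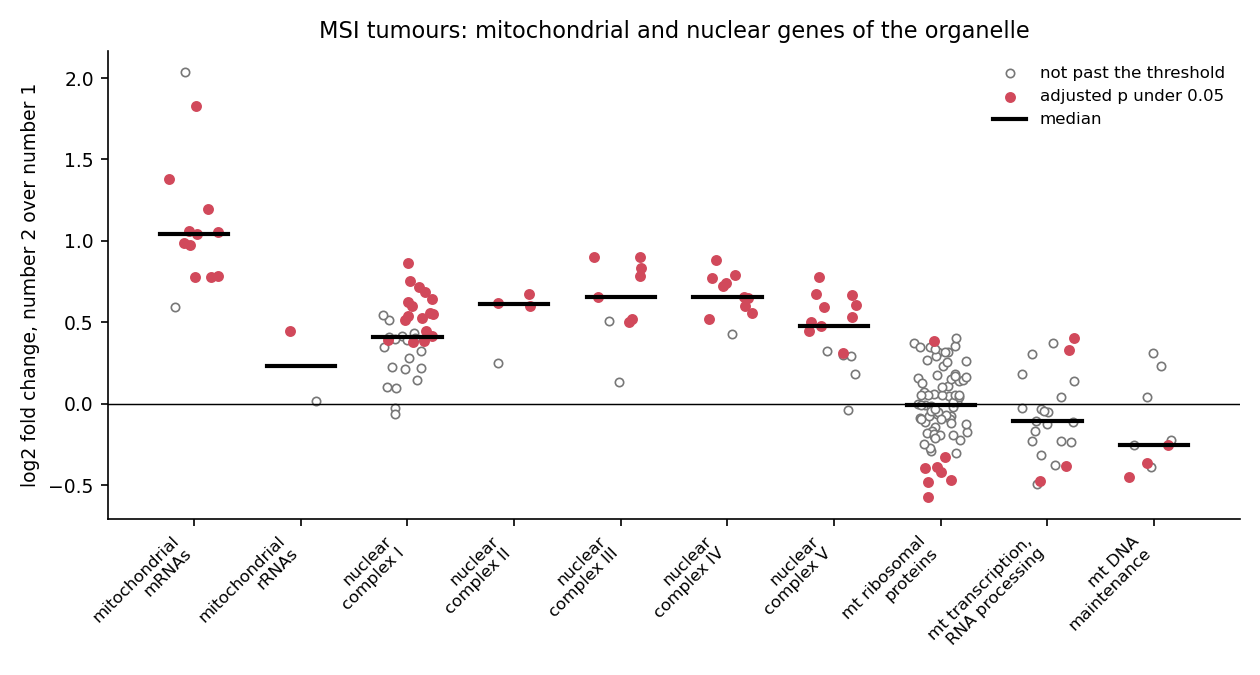
edgeR log2 fold change of libraries numbered 2 over number 1 in MSI tumours, 1 point per tested gene (red: adjusted p under 0.05), for the mitochondrial mRNAs and rRNAs and for nuclear gene lists of the organelle; black bars are medians. The medians of the 5 complexes lie between 0.41 and 0.66, below the mitochondrial mRNAs at 1.04, while those of the ribosomal proteins, transcription and DNA maintenance lists lie at or below 0.

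Markers of other cells, and the summed level of RNAs kept in the nucleus, moved with the same libraries. Their calls in MSI tumours stand beside the 13.4% of all genes tested that were called higher and the 18% called lower. In MSI tumours the 15 colon epithelium markers summed to 664 to 4344 CPM in number 1 and 8973 to 14318 CPM in number 2. All 15 had a positive log2 fold change, beside 8332 of all 18777 genes tested, and 1 (Clca1) was called. The 10 smooth muscle markers summed to 496 to 1381 CPM in number 1 and 2288 to 5789 CPM in number 2, with 4 of 10 called higher. In the opposite direction, the 7 macrophage markers summed to 1972 to 2611 CPM in number 1 and 1172 to 1683 CPM in number 2 (5 of 7 called lower), and 10 of 12 cell cycle genes were called lower. No marker of these 4 lists was at 0 in every library. The 5 nuclear-retained RNAs summed to 1425 to 1559 CPM in number 1 and 1850 to 2791 CPM in number 2, without overlap, with 1 of 5 called higher (Neat1, log2 fold change 0.85 ± 0.21, edgeR adjusted p = 0.0211). In MSI tumours only 3 of these 5 RNAs had a positive log2 fold change, and the lowest was -0.77. In CIN tumours the sums of the 5 overlapped. They were 1967 to 2404 CPM in number 1 and 2074 to 2488 CPM in number 2. In CIN tumours the colon epithelium sum was 172 to 7264 CPM in number 1 and 3682 to 9840 CPM in number 2, and the smooth muscle sum 207 to 1690 CPM and 634 to 2185 CPM. The part of these cell types and RNAs in the mitochondrial values was not tested.

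Between the tumour types no mitochondrial gene was called (0 of 24), where 5.8% of all genes were called, 2.32% higher and 3.48% lower in MSI tumours (2.38% to 8.80% called when 1 library was left out). The log2 fold change, MSI over CIN tumours, was positive for 22 of the 24, beside 10468 of all 18777 genes tested. The median was 0.36 against 0.06 over all genes tested. These values average over the library numbers. The mean mitochondrial share was lower in MSI than in CIN tumours among libraries numbered 1, and higher among those numbered 2. With edgeR 3 of the 24 had an unadjusted p under 0.05, beside 4144 of the 18777. mt-Rnr1 came nearest to the threshold. It had 420 to 495 CPM in MSI tumours with a median of 456 and 310 to 429 CPM in CIN tumours with a median of 371, so the groups overlapped only at 420 to 429 CPM. The log2 fold change was 0.32 ± 0.09 (edgeR adjusted p = 0.0659). It was called by DESeq2 (adjusted p = 0.0274), which called 12.2% of all genes, and with the library number as a block inside each tumour type (edgeR adjusted p = 0.0317). It was also the 1 gene called by edgeR without library 1 of CIN tumours given MSI free DNA.

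The numbers pair the libraries across the groups of MSI tumours but not of CIN tumours, and that block takes the number difference of MSI tumours out of the spread. With it, 3 mitochondrial genes were called higher in MSI tumours, where 18.3% of all genes were called. They were mt-Rnr1, mt-Nd1 (log2 fold change 0.42, edgeR adjusted p = 0.0171) and mt-Nd2 (0.38, edgeR adjusted p = 0.0106). Without the block, mt-Nd1 was at 0.47 ± 0.20 (edgeR adjusted p = 0.190) and mt-Nd2 at 0.43 ± 0.19 (edgeR adjusted p = 0.209). mt-Co1 had 10724 ± 4595 CPM in MSI and 9066 ± 1162 CPM in CIN tumours (SD over 8 libraries), a log2 fold change of 0.23 ± 0.25 (edgeR adjusted p = 0.575). The other mRNAs were between 0.13 (mt-Nd4l) and 1.09 (mt-Atp8), and mt-Rnr2 was at 0.30 ± 0.14 (edgeR adjusted p = 0.233).

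Nuclear genes of the organelle gave few calls in that comparison. Of the 75 nuclear subunits, 73 had a positive log2 fold change, beside 10468 of all 18777 genes tested. Their median was 0.32, against 0.06 over all genes. In MSI tumours 4 were called higher, beside 2.32% of all genes. They were Ndufa8 (0.74 ± 0.15), Ndufs7 (0.50 ± 0.12) and Ndufs5 (0.38 ± 0.10) of complex I, and Atp5b (0.39 ± 0.09), the catalytic beta subunit of complex V. Their edgeR adjusted p-values lay between 0.0188 (Ndufa8) and 0.0433 (Ndufs5). With the block within tumour type 29 were called, where 7.59% of all genes were higher, and 0 in an additive model that left out the 5 muscle-rich libraries, where 0.170% were higher. The count went up or down when 1 library at a time was left out, and so did the share of all genes called.

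Tfam was called higher in MSI tumours, with 62.2 ± 6.45 CPM against 47.6 ± 2.94 CPM in CIN tumours (SD, n = 8 each), no overlap between the groups and a log2 fold change of 0.38 ± 0.09 (edgeR adjusted p = 0.0283). In the same list Supv3l1, a helicase of mitochondrial RNA turnover, was also called (0.34 ± 0.08, edgeR adjusted p = 0.0330). Polrmt (0.16 ± 0.10), Lrpprc (0.08 ± 0.15), Slirp (-0.01 ± 0.31), Ppargc1a (0.91 ± 0.71) and Cs (0.58 ± 0.23) were not called. Of the 77 mitochondrial ribosomal proteins, 5 were called higher, again beside 2.32% of all genes, led by Mrps6 (0.74 ± 0.14, edgeR adjusted p = 0.0118) and Mrpl54. Beside these values, the colon epithelium markers summed to 664 to 14318 CPM in MSI and 172 to 9840 CPM in CIN tumours with 0 of 15 called, and the smooth muscle markers to 496 to 5789 and 207 to 2185 CPM with 0 of 10 called. Their part was not tested.

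The DNA given to the dendritic cells left no called mitochondrial gene. For MSI against CIN DNA 0 of 24 passed, where 0% of all genes did. With edgeR 1 mitochondrial gene had an unadjusted p under 0.05, beside 209 of the 18777 genes tested. That gene was mt-Te, the glutamate tRNA gene, at 0.314 ± 0.146 CPM with MSI DNA and 0.937 ± 0.427 CPM after CIN DNA (SD over 8 libraries). The groups overlapped, the log2 fold change was -1.52 ± 0.36 and the edgeR adjusted p was 1.00 after rounding, on 1 to 22 counts per library. mt-Co1 had 9341 ± 2588 CPM with MSI DNA and 10450 ± 4080 CPM with CIN DNA, a log2 fold change of -0.16 ± 0.25 (edgeR adjusted p = 1.00). For free DNA against micronuclei 0 of 24 passed and none had an unadjusted p under 0.05; mt-Co1 had 9738 ± 3127 and 10053 ± 3769 CPM, a log2 fold change of -0.03 ± 0.25 (edgeR adjusted p = 1.00). DESeq2 called no mitochondrial gene for either factor. The pairwise interactions of tumour type, DNA source and DNA form gave no called mitochondrial gene, where 0% of all genes passed. With SEs near 0.25 for mt-Co1, differences of the size seen here were not detectable.

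A ratio of 2 genes within a library does not depend on scaling. For 3 pairs of genes, ratios per kilobase were compared across the 3 factors and the library number, 12 comparisons in all, each by a two-sided exact permutation test within matched groups, with Benjamini-Hochberg adjustment over the 12. The log2 ratio of mt-Co1 to mt-Cytb, 2 long heavy-strand mRNAs, was 1.32 ± 0.06 in MSI tumours and 1.45 ± 0.12 in the 8 CIN libraries (SD). The two-sided exact permutation p was 0.0108, and 0.130 after adjustment. Without library 1 of MSI tumours given CIN micronuclei the adjusted p of that exact test was 0.0185. The log2 ratio of mt-Nd6 to mt-Nd5, which face each other on opposite strands, was 0.62 ± 0.33 in number 1 and 0.29 ± 0.21 in number 2 (SD, n = 8 each; exact permutation p = 0.0547, adjusted p = 0.328). The log2 ratio of mt-Rnr2 to mt-Nd1, an rRNA and the mRNA next to it, was -2.98 ± 0.23 for MSI and -2.85 ± 0.15 for CIN tumours (SD). Its exact permutation p was 0.228, and 0.685 after adjustment. No ratio passed after adjustment; the smallest p that the tests allow is 0.00154 for a factor and 0.00781 for the library number.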

How the data were processed

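Bulk RNA-seq of poly-T selected RNA was analysed in 16 tumour libraries, 2 for each of 8 groups. The deposited table holds whole-number counts per gene. For these counts the submitters' processing notes name fastp, HISAT2 (2.0.5), featureCounts (1.5.0-p3) and the build GRCm39, but the coordinates in the table match GRCm38. The protocols in the labels describe both stranded and non-stranded preparation, so reads of genes on opposite strands of the same stretch (such as mt-Nd5 and mt-Nd6) may not be separated. 4 count columns that matched no sample were not used.

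Counts were tested in R 4.3.3 with edgeR 4.0.16 (limma 3.58.1): TMM scaling, filterByExpr, 1 mean per group, robust quasi-likelihood test, Benjamini-Hochberg adjustment over 18777 genes, threshold 0.05. The common biological coefficient of variation was 0.43. DESeq2 1.42.0, other scalings, no filter, additive and block models, and leaving out each library were alternatives. The fit was also run on simulated counts with less spread between libraries than these data. That run cannot show how accurate the fit is here. CPM values are TMM-scaled. SDs are over libraries. SEs of edgeR log2 fold changes were worked back from the test, as the size of the change over the square root of its F statistic. Named genes were all 13 mRNAs and 2 rRNAs, tRNA genes with at least 10 counts, up to 3 called members with the largest rise and fall of each nuclear list, and 6 fixed regulators. The members and lists were chosen with earlier results of these data known.

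Deviations of same-numbered libraries from their group means correlated above 0.1 in 6 of 6 pairs of MSI tumour groups (0.506 to 0.850). They did so in 2 of 6 pairs of CIN tumour groups, and in 16 of 28 pairs over all groups. The numbers were therefore not used as a block in the reported fit of tumour type, DNA source, DNA form and their interactions. Gene sequences come from the GENCODE M21 transcripts (GRCm38). No 2 libraries of a group agreed within sampling noise.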

Additional observations from a re-analysis of the deposited data

How the results depend on the processing

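Across the other settings, 501 values that answer a comparison were kept, 42 moved, 24 changed sign and 1 newly passed the threshold. A kept ratio had the same direction and side of the threshold, and a kept count of genes was equal or close to the reported count. A share difference was kept when it moved by less than the larger SD of its groups, even where its sign changed. Of the values of single genes, 778 kept their direction and side of the threshold, 48 lost their call, 13 gained one and 24 changed sign. The count of 13 mitochondrial genes higher in number 2 of MSI tumours was 12 to 15 under other scalings, filters and DESeq2, and 7 to 13 without 1 library; fits on MSI tumour libraries alone, with scaling to the total count or without a filter were chosen after seeing the data. The count for nuclear subunits there was 6 to 59 without 1 library. For the difference of that change between tumour types, DESeq2 gave 12 genes and omissions 0 to 10. For the number over all groups, DESeq2 gave 6 and omissions 0 to 2. For tumour type, DESeq2 and the additive model gave 1 gene each, and omissions 0 to 1. The replicate block within tumour type gave 3 genes and 29 nuclear subunits, the latter being 7 with DESeq2, 7 in the additive model, 0 in the additive model without the muscle-rich libraries and 0 to 17 with omissions. No other call on these counts changed with a block. The share of all genes called moved between these settings as well. For tumour type it was 5.8% in the reported fit, 12.2% with DESeq2 and 18.3% with the block within tumour type. For the difference between tumour types it was 0% in the reported fit and 23.7% with DESeq2.

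Values near 0 changed sign with omissions. mt-Rnr1 in number 2 against 1 of MSI tumours was -0.079 to 0.10, with -0.013 and -0.024 when scaling left out mitochondrial genes or used the total count; its difference between tumour types was -0.10 to 0.21. mt-Nd4l between tumour types was -0.13 to 0.28. mt-Co1 was -0.31 to 0.060 for DNA source and -0.20 to 0.19 for DNA form. The difference in mitochondrial share, in percentage points, was -0.34 to 0.049 for DNA source and -0.23 to 0.16 for DNA form. For number 2 minus number 1 in CIN tumours it was -0.067 to 0.18. The log2 ratio of mt-Co1 to mt-Cytb was -0.046 to 0.0032 for source, -0.0042 to 0.040 for number and -0.15 to -0.10 for tumour type. That of mt-Nd6 to mt-Nd5 was -0.068 to 0.18 for form and -0.16 to 0.087 for source, and that of mt-Rnr2 to mt-Nd1 -0.068 to 0.055 for form and -0.037 to 0.085 for source. The causes were not tested. Depth limits the tRNA genes and mt-Atp8, which had 65 counts in all.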

Other observations

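The nuclear copies on chromosome 1 were also higher in MSI tumour libraries numbered 2, with 4 of 6 called higher, where 13.4% of all genes tested were. Gm28439, the copy of the start of mt-Nd4, had a log2 fold change of 1.46 ± 0.17 (edgeR adjusted p = 0.00528), from 5.78 ± 0.667 to 16.2 ± 4.15 CPM (SD, n = 4 each). Gm29216 and Gm10925 had 1.45 ± 0.34 and 1.35 ± 0.25. The copies are nearly identical to the mitochondrial stretches that they match, so reads from those stretches can hardly be told apart by sequence. mt-Co1 and mt-Nd4 also have bases outside the stretch that their copy matches.

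Of the muscle isoforms of complex IV, Cox7a1 rose in number 2 of MSI tumours, with a log2 fold change of 1.55 ± 0.35 (edgeR adjusted p = 0.0144). Cox6a2, the isoform of heart and skeletal muscle, fell, at -1.78 ± 0.42 (edgeR adjusted p = 0.0162). Cox8b, the other isoform listed, was at 1.42 and was not called. These calls stand beside 13.4% of all genes called higher and 18% called lower. The skeletal muscle markers summed to 5.95 to 761 CPM in number 1 and 10.1 to 36.8 CPM in number 2. The high end in number 1 was the library given CIN micronuclei, the only MSI tumour library rich in skeletal muscle transcripts. The part of these markers in the isoform values was not tested.

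In CIN tumours the share of mt-Nd6 within the mitochondrial counts was 2.47% to 3.02% in number 1 and 2.06% to 2.39% in number 2, without overlap and with no test. In that comparison mt-Nd6 itself had a log2 fold change of -0.26 ± 0.17 (edgeR adjusted p = 0.700).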
